A study of Mus musculus with 14 samples.

Results

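The liver-enriched transcription factors described here are 8 genes, Hnf4a, Foxa2, Foxa3, Cebpa, Cebpd, Onecut1, Hhex and Prox1, of 12393 genes with a single symbol on the array. They were taken by name from the array's annotation, which pairs 13 probe sets of 22690 with them, and the probe set with the highest mean intensity over the 14 arrays stands for each gene. All 8 passed the filter on low intensity, as did 8454 genes in all. RNA of mouse liver was hybridised to 1-colour arrays, 2 for each of 7 conditions. These were 4, 8, 12, 36, 48 and 72 h of recovery from partial hepatectomy (PHx), an operation that takes out part of the organ and leaves the remainder to regrow, and liver that the labels call normal. Livers of 4 to 6 mice were combined for each RNA extraction. Whether both arrays of a condition hold different pools is not stated, so a p-value measures only the spread between these arrays, which may be technical. Strain, sex, age, the share of liver removed and any treatment beside the surgery are not given in the labels. The comparison group is normal liver, so the surgery itself and the loss of tissue cannot be told apart.

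A small set of transcription factors, acting together on shared enhancers, keeps the hepatocyte programme running. HNF4A is a nuclear receptor, FOXA2 and FOXA3 are forkhead proteins that can open closed chromatin, C/EBPα and C/EBPδ are leucine zipper proteins that bind the same kind of site, HNF6 (the product of Onecut1) is a cut-homeodomain protein, and HHEX and PROX1 are homeodomain proteins needed for the early liver bud. These factors also regulate one another's genes. C/EBPα restrains hepatocyte proliferation, while C/EBPδ is known as an acute-phase factor that is scarce in resting liver.

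Promoters are shown for the 3 members whose brightest probe set was called lower at an early time, Foxa2, Cebpa and Hhex, and for Hnf4a, which passed no test, so that their letters can be set beside the values. RefSeq windows in build GRCm38.p6, each the 250 bases before an annotated start, were given for 7 of the 8 members, 11 windows in all. The windows shown lie at chr2:148046970-148047219 on the minus strand (Foxa2), chr7:35119043-35119292 on the plus strand (Cebpa), chr19:37434591-37434840 on the plus strand (Hhex) and chr2:163506607-163506856 on the plus strand (Hnf4a); Foxa2 and Hnf4a have further windows at other starts. Each is read 5′ to 3′ toward its gene, and capitals mark every match to a motif searched on both strands.
Foxa2: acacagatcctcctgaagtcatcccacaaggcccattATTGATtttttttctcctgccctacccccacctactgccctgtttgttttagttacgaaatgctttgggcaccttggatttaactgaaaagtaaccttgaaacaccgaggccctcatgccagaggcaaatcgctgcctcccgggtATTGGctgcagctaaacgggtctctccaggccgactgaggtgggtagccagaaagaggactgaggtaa
Cebpa: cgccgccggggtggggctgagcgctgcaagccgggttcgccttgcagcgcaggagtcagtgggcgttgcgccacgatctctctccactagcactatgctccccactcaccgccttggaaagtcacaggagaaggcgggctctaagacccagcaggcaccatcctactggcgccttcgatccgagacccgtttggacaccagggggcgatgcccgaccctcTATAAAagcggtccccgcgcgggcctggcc
Hhex: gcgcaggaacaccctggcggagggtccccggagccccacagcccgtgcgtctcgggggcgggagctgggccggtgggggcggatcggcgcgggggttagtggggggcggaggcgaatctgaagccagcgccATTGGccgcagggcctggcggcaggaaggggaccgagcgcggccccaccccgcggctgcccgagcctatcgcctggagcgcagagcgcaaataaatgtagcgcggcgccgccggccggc
Hnf4a: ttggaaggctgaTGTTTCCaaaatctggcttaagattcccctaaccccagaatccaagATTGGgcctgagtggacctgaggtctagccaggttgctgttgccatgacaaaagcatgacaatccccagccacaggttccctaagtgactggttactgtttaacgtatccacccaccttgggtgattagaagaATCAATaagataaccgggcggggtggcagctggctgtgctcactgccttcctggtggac

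The 9 motifs were searched as TATAAA for the TATA box, CCAAT for the box named after it, TTGCNNAA for C/EBP, ATCAAT for HNF6, TGTTTNC for FOXA, TTCNNNGAA for STAT proteins, TGANTCA for AP-1, GTTAATNAT for HNF1 and CAAAGTCCA for HNF4. Foxa2 holds the HNF6 letters on the opposite strand (ATTGAT) 213 bases before its start and Hnf4a holds them 59 bases before its start; 6.72% of 32851 windows of the same length do. Hnf4a also holds the FOXA letters 238 bases before its start, as 17.8% of windows do. The other Hnf4a window, at chr2:163546905-163547154, holds a CCAAT box at 216 bases and neither the HNF6 nor the FOXA letters. The further Foxa2 windows also lack the HNF6 letters. The one at chr2:148045949-148046198 holds none of the 9 motifs, and the one at chr2:148045465-148045714 holds only a TATA box at 208 bases. Which start is used in these livers was not measured. Foxa2, Hhex and Hnf4a each hold a CCAAT box, present in 33.8% of windows, at 68, 119 and 192 bases. Cebpa holds a TATA box 30 bases before its start, as 12.4% of windows do. The window of Onecut1 held none of the 9 motifs. The C/EBP letters (9.56% of windows), the STAT letters (7.02%), the AP-1 letters (6.75%), the HNF1 letters (0.737%) and the HNF4 letters (0.384%) were in none of the 4 windows shown. No matched letters overlap in these 4 windows, and a match describes the letters alone.

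The 8 genes did not move as a block. Cebpd rose at 4, 8 and 12 h and, by its brighter probe set, at 36 h, Hhex fell at 4, 8 and 12 h, Foxa2 fell at 4 and 12 h, Cebpa fell at 8 h, and the probe sets standing for Hnf4a, Foxa3, Onecut1 and Prox1 passed no test against normal liver; a dimmer probe set of Onecut1 was called lower at 4, 8 and 12 h. Changes are differences of log2(intensity + 56.6), tested with limma over all 13580 probe sets that passed the filter, with Benjamini-Hochberg adjustment and a threshold of 0.05. At 4 h 1 of the 8 members was called higher and 2 lower, against 1.6% and 0.825% of all tested probe sets (2.42% together). At 8 h 1 was called higher and 2 lower, against 4.86% and 4.72% of probe sets (9.58% together). At 12 h 1 was called higher and 2 lower, against 5.97% and 6.21% (12.2% together). At 36 h 1, Cebpd, was called higher and 0 lower, against 2.28% and 1.88% (4.16% together). At 48 h (1.63% higher and 0.685% lower, 2.32% together) and 72 h (1.62% higher and 0.862% lower, 2.48% together) 0 members were called by limma, while 1 member at 48 h, Hhex, and 0 at 72 h had an unadjusted p under 0.05. The moderated F test over the 6 times called 3 members, Hhex, Cebpd and Foxa2, against 13.1% of probe sets. Counted by arrays alone, 2 members (Hnf4a and Cebpd) had both 4 h arrays above both normal arrays, against 19.4% of probe sets, and 5 (Foxa2, Foxa3, Cebpa, Onecut1 and Hhex) had both below, against 23.7%. At 8 h 3 members lay above (29.5% of probe sets) and 3 below (25.6%), at 12 h 2 above (29.4%) and 3 below (22.9%), and at 36 h 3 above (26.7%) and 3 below (20.2%). At 48 h 1 lay above (22.9%) and 4 below (16.3%), and at 72 h 2 above (27.1%) and 3 below (17.6%). Cebpa and Hhex are among those below at every time. The 6 comparisons share the 2 normal arrays. Fewer hepatocytes and less RNA per hepatocyte cannot be told apart in these whole-liver samples.

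Hepatocyte markers, 8 of 10 on the array and all above background on every array, summed to 313698 to 385708 at 4 h and 276808 to 297623 at 8 h, against 290997 to 370400 in normal liver. Both arrays of 36 h (231249 to 234069) and of 72 h (267950 to 278192) summed to less than either normal array, those of 12 h (283195 to 326187) and 48 h (194552 to 312820) overlapped them, 0 of the 8 markers was called against normal liver at any time, and 1 was called lower late against early. Summed acinar and muscle markers stood high at 4 and 8 h, when Hhex, Foxa2 and Cebpa were low. The 20 pancreatic acinar markers on the array summed to 1503 to 2748 in normal liver, 47444 to 47739 at 4 h, 331502 to 356857 at 8 h, 2661 to 5617 at 12 h, 1504 and 54080.4 on the 2 arrays of 36 h, 3094 to 3715 at 48 h and 2162 to 2395 at 72 h. Of these 20, limma called 10 higher at 4 h, 20 at 8 h and 0 at 12 and 36 h. Muscle markers, 15 of 15, summed to 19672 to 21532 at 4 h and 12137 to 13229 at 8 h, against 593 to 1053 in normal liver. Cholangiocyte markers, 7 of 9, summed to 7143 to 8866 in normal liver. At 4, 8 and 12 h they summed to 15637 to 18498, 20209 to 23556.5 and 15487 to 36435. At 36, 48 and 72 h the sums were 26246 to 29394, 12911 to 14995 and 17580 to 21871.5. A few bright markers carry these sums: 3 to 6 of the 7 lay above background on an array. The median marker gave 129 and 132 in normal liver and 181 and 182 at 36 h. Of the 5 tested, 0 were called higher at 4 and 48 h, 3 at 8, 12 and 36 h and 1 at 72 h. Neutrophil markers, 10 of 11, summed to 773 to 1367 in normal liver. At 4, 8 and 12 h they summed to 2413 to 2509, 2726 to 3183 and 2440 to 2804. At 36, 48 and 72 h the sums were 1511 to 2965, 1366 to 2524 and 1924.5 to 1934. Kupffer cell and macrophage markers, 10 of 11, summed to 8216 to 8739 at 8 h and 7339 to 9383 at 12 h, against 11853 to 12837 in normal liver. Of them 2 were called lower at 8 h and 4 at 12 h, and 1 was called higher at each of 4, 8, 12 and 36 h. At 4 h they summed to 13639 to 14065, above both normal arrays. At 36, 48 and 72 h the sums were 10219 to 11211, 10467 to 11125 and 11216 to 12195. Islet markers, 9 of 10, summed to 1127 to 1639 at 8 h, against 258 to 765 in normal liver, and to 705 to 1264 at 48 h. Of the 9, 3 to 5 lay above background on an array of 8 h and 2 to 5 in normal liver. Only 2 were tested, and 1 was called higher at 8 h. Hnf4a, Foxa2, Onecut1, Hhex and Prox1 are also made in the pancreas. At 12 h the acinar sum was 2661 to 5617, against 1503 to 2748 in normal liver. The muscle sum at 12 h was 2540 to 2997, above both normal arrays. Cebpd, Hhex and Foxa2 were called at 12 h in the same directions as at 4 h. Without the 36 h array of high acinar sum, replicate 2, the Cebpd change at 36 h was 0.89 (adjusted p = 0.328; between 0.0206 and 0.396 over all settings). The part of these markers in the members' changes was not tested.

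**Figure D1:**
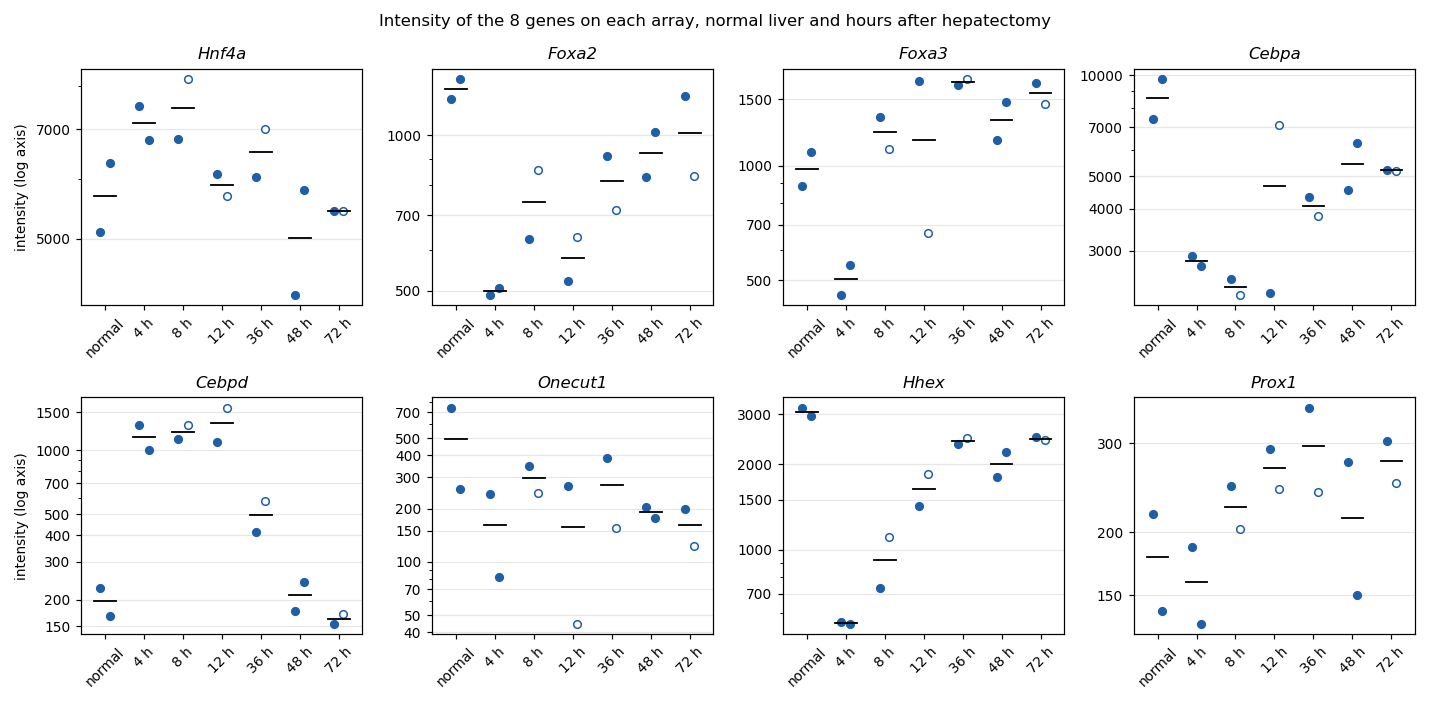
Intensity of each of the 8 genes (vertical log axis, array units) on each array of normal liver and of liver 4 to 72 h after PHx (horizontal axis); points are arrays, bars are group means, and open circles are the 4 arrays of low 5′/3′ control ratio. Hhex lies at 549 to 557 at 4 h, against 2967 to 3147 in normal liver, while Cebpd lies at 999 to 1314, against 168 to 227 in normal liver.

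Cebpd was the member that rose. Its intensity (probe set 1423233_at) was 227 and 168 in normal liver, 1314 and 999 at 4 h, 1122 and 1303 at 8 h, 1093 and 1568.5 at 12 h, 413 and 576 at 36 h, 177 and 241.5 at 48 h and 154.5 and 172 at 72 h. All 6 arrays from 4 to 12 h lie several times above both normal arrays, both arrays at 36 h lie between these groups, and the 48 and 72 h arrays sit at or near the normal level. The change was 2.25 (SE 0.26, adjusted p = 0.000735, limma) at 4 h, 2.33 (SE 0.26, adjusted p = 0.000322) at 8 h and 2.44 (SE 0.26, adjusted p = 0.000271) at 12 h. At 36 h it was 1.11 (adjusted p = 0.0369), a call kept in 10 of 26 other settings, with adjusted p between 0.0206 and 0.396; it was lost without either array of normal liver, of 4, 8, 36 or 72 h (adjusted p between 0.0524 and 0.328). At 48 and 72 h the changes were 0.07 (adjusted p = 0.931) and -0.20 (adjusted p = 0.749). A dimmer probe set of Cebpd, which correlated with the first at r = 0.73 over the 14 arrays, was also called higher at 8 h (1.59, adjusted p = 0.0118) and 12 h (1.55, adjusted p = 0.0121), and its change at 4 h was 0.90 (adjusted p = 0.24). At 36 h it gave 103.6 to 158 on the 2 arrays, overlapping the 50.4 to 152 of normal liver, and was not called (0.31, adjusted p = 0.707).

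Cebpa, the C/EBP gene of the resting hepatocyte, ran the other way. Its intensity (probe set 1418982_at) was 7398 and 9734 in normal liver, 2893 and 2697 at 4 h, 2470.0 and 2218.5 at 8 h, 2250.3 and 7111 at 12 h, 4330.4 and 3812 at 36 h, 4561 and 6296 at 48 h and 5234 and 5181 at 72 h. Every array after PHx lies below both normal arrays, with 1 array at 12 h (7111) close under them and the other (2250) among the lowest. The fall passed the test at 8 h (-1.83, SE 0.40, adjusted p = 0.0145, limma); it did not pass without normal liver replicate 2 (adjusted p = 0.118) or without replicate 1 (0.0704) or replicate 2 (0.101) of 8 h, and over 26 settings the adjusted p ran between 0.00062 and 0.118. At 4 h the change was -1.58 (SE 0.40, adjusted p = 0.0668), and it passed in 8 of 26 settings, with adjusted p between 0.00293 and 0.354; the lowest value came without either array of 12 h. At 12 h it was -1.07 (adjusted p = 0.103), against -1.89 (adjusted p = 0.00242) without replicate 2 of that time; the adjusted p over all settings ran up to 0.562. At 36 h it was -1.05 (adjusted p = 0.186; 0.0219 without either array of 12 h, and between 0.0219 and 0.571 over all settings). At 48 and 72 h the changes were -0.66 (adjusted p = 0.489) and -0.70 (adjusted p = 0.444).

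Hhex, a homeobox repressor of liver and endothelium, fell at all 3 early times. Its intensity (probe set 1423319_at) was 3147 and 2967 in normal liver, 557 and 549 at 4 h, 733 and 1105 at 8 h, 1423 and 1846 at 12 h, 2354 and 2470.0 at 36 h, 1796 and 2199 at 48 h and 2486 and 2433 at 72 h. Both 4 h arrays are at about the same low level, the 8 and 12 h arrays climb in steps, and the 36 to 72 h arrays stay under both normal arrays. Mean intensity at 4 h was 18.1% of the normal mean. The change was -2.35 (SE 0.24, adjusted p = 0.000293, limma) at 4 h and -1.70 (SE 0.24, adjusted p = 0.0011) at 8 h, and both were called in 26 of 26 other settings. At 12 h it was -0.89 (SE 0.24, adjusted p = 0.0304), called in 20 of 26 settings with adjusted p between 0.0112 and 0.211. The call was lost without normal liver replicate 1 (change -0.85), normal liver replicate 2 (-0.93) or replicate 1 of 12 h (-0.71). It was also lost without the 4 arrays of low 5′/3′ control ratio (-1.07). Array weights (adjusted p = 0.136) and the limma fit to the compared arrays only (0.211) lost it too. The later changes were -0.33 (adjusted p = 0.518) at 36 h, -0.61 (0.269) at 48 h and -0.31 (0.571) at 72 h. Endothelial markers, 14 of 14 on the array, summed to 6963 to 7225 at 4 h and 5575 to 6257 at 8 h, against 6645 to 7163 in normal liver.

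Foxa2 fell at 4 and 12 h. Its intensity (probe set 1422833_at) was 1175 and 1283 in normal liver, 492 and 506 at 4 h, 631.5 and 855 at 8 h, 523 and 636 at 12 h, 911 and 718 at 36 h, 832 and 1014 at 48 h and 1191 and 834 at 72 h. The arrays of 4, 8 and 12 h all lie below the normal pair, and 1 array at 72 h reaches it. The change was -1.21 (SE 0.25, adjusted p = 0.0253, limma) at 4 h, -0.70 (adjusted p = 0.0996) at 8 h and -1.02 (SE 0.25, adjusted p = 0.02) at 12 h. The 4 h call was kept in 21 of 26 settings (adjusted p between 0.0122 and 0.168); it was lost without normal liver replicate 1 (0.0596), normal liver replicate 2 (0.164), and replicate 1 (0.153) or replicate 2 (0.168) of 4 h. The 12 h call was also kept in 21 of 26 settings (between 0.0108 and 0.157). It was lost without normal liver replicate 2 (change -0.96), replicate 1 of 12 h (-0.89) or the 4 arrays of low 5′/3′ control ratio (-1.15). Array weights (adjusted p = 0.11) and the limma fit to the compared arrays only (0.157) lost it too. At 36, 48 and 72 h the changes were -0.57, -0.40 and -0.29 (adjusted p = 0.244, 0.496 and 0.619).

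Foxa3, the other forkhead gene of the 8, passed no test against normal liver. Its intensity (probe set 1431900_a_at) was 883 and 1086 in normal liver, 458 and 547 at 4 h, 1342 and 1109 at 8 h, 1673 and 667 at 12 h, 1631 and 1692 at 36 h, 1168.5 and 1478 at 48 h and 1655 and 1455 at 72 h. Both 4 h arrays lie below the normal pair, both arrays at 36, 48 and 72 h lie above it, and the 12 h arrays fall on either side. The change was -0.90 (SE 0.34, adjusted p = 0.243, limma) at 4 h, and 0.30, 0.11, 0.73, 0.40 and 0.63 at the 5 later times. Without either 12 h array the 4 h value passed (adjusted p = 0.045; between 0.045 and 0.685 over all settings).

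**Figure D2:**
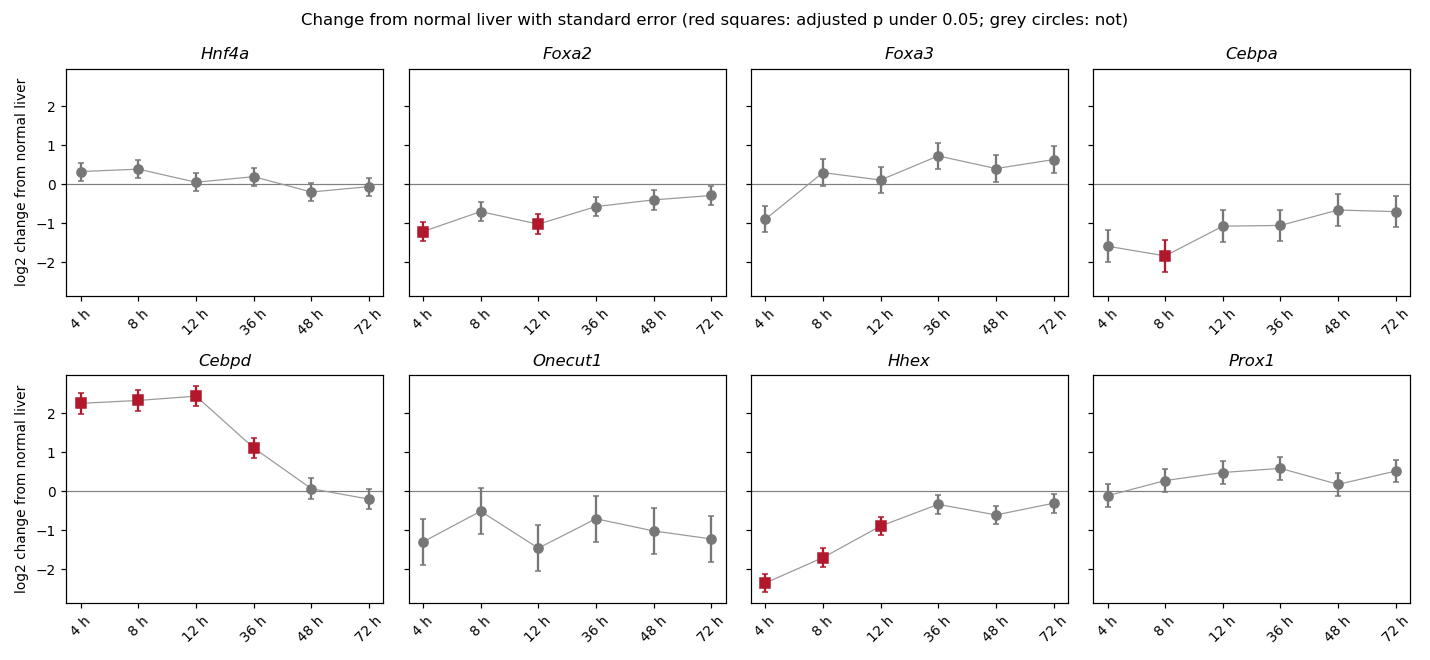
Log2 change of each of the 8 genes from normal liver (vertical axis, log2(intensity + 56.6)) at 4 to 72 h after PHx (horizontal axis), with SE bars from limma; red squares have an adjusted p under 0.05 and grey circles do not. Cebpd lies at 2.25 to 2.44 from 4 to 12 h, Hhex at -2.35 to -0.89, and Hnf4a stays between -0.20 and 0.39.

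Hnf4a, the nuclear receptor on which hepatocyte identity rests, passed no test at any time. Its intensity (probe set 1427001_s_at) was 5098 and 6312 in normal liver, 7510.1 and 6781 at 4 h, 6799 and 8163 at 8 h, 6091 and 5698 at 12 h, 6045 and 7014 at 36 h, 4208.5 and 5812 at 48 h and 5448 and 5446 at 72 h. Both arrays at 4 h and both at 8 h lie above the normal pair, and the later arrays overlap it. Changes were 0.33, 0.39, 0.05, 0.20, -0.20 and -0.06 in order of time, with adjusted p between 0.312 and 0.93 (limma). The gene has 4 probe sets, none called in any comparison, and the other 3 correlated with the first at r = 0.24, -0.19 and -0.03 over the 14 arrays. One of them, 1421983_s_at, gave 1707 and 1670.1 in normal liver, 3376 and 3406 at 4 h, 2962 and 1582 at 8 h, 2895 and 1723.5 at 12 h, 2619.9 and 1405 at 36 h, 1924 and 2484 at 48 h and 1969 and 1346 at 72 h (change at 4 h 0.98, adjusted p = 0.243). For this probe set replicate 2 was 0.534 to 0.684 times replicate 1 at 8, 12, 36 and 72 h, and 0.978 to 1.29 times it in the other 3 groups. Probe set 1450447_at ran the same way, 0.231 to 0.727 times at those 4 times and 1.32 to 1.87 times in the other 3 groups. Probe set 1427000_at ran the opposite way, 1.17 to 1.75 times at those 4 times and 0.392 to 0.748 times in the other 3 groups. Its mean was 1.78 to 2.35 times the normal mean at the 6 times after PHx, with adjusted p between 0.0872 and 0.428. The second replicates of 8, 12, 36 and 72 h are the arrays on which the 5′ to 3′ ratio of the pyruvate carboxylase control was 0.0909 to 0.137, against 0.305 to 0.584 on the other 10. The part of that ratio in the difference between probe sets was not tested.

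**Figure D3:**
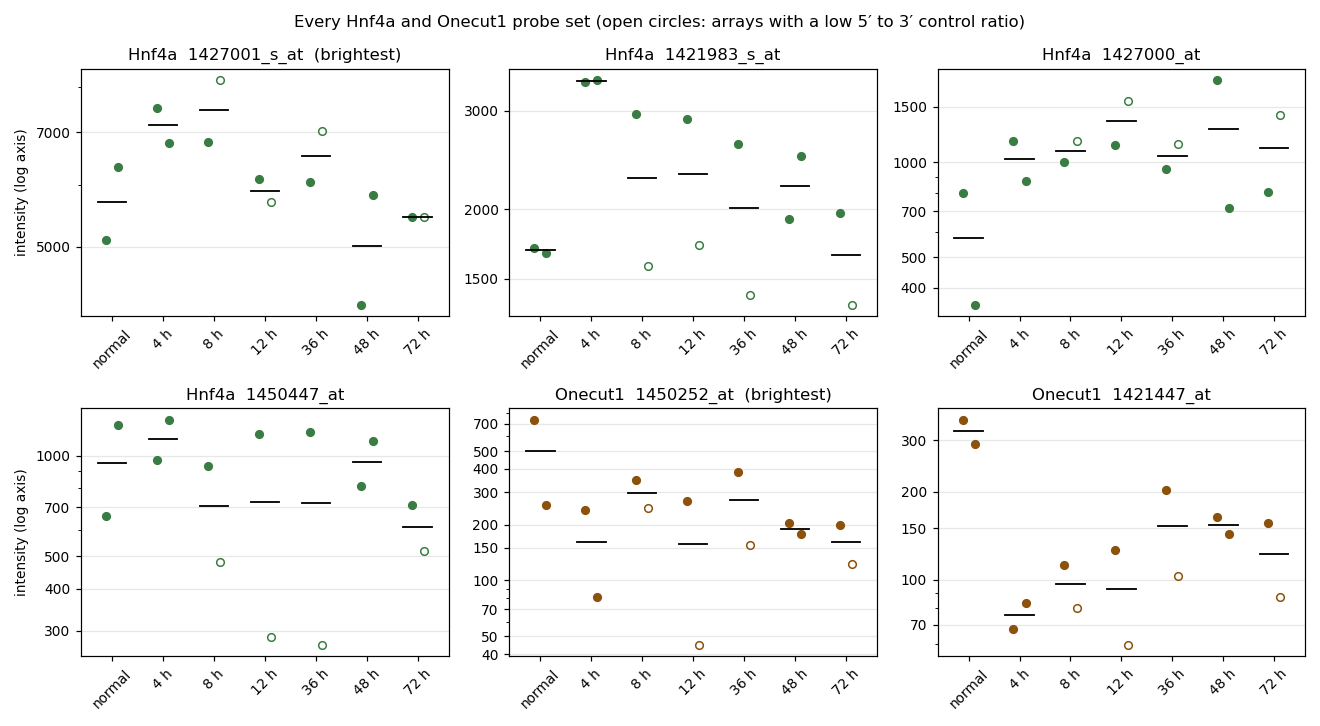
Intensity of every probe set of Hnf4a and Onecut1 (vertical log axis, array units) on each array by group (horizontal axis). Open circles are the 4 arrays of low 5′/3′ control ratio. A probe set of Hnf4a gave 3376 and 3406 at 4 h, against 1707 and 1670.1 in normal liver, while the brightest one gave 7510.1 and 6781, against 5098 and 6312 in normal liver.

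Onecut1, the HNF6 gene, gave uneven values from array to array. The brighter of its probe sets, 1450252_at, gave 738 and 257 in normal liver, 241 and 81.9 at 4 h, 349.5 and 246 at 8 h, 269.6 and 44.8 at 12 h, 385 and 156 at 36 h, 204 and 177 at 48 h and 198 and 123 at 72 h, and lay above the background of its array on 12 of the 14. The normal arrays stand far apart, at 738 and 257, and no change was called (-1.30 at 4 h, adjusted p = 0.353; -1.46 at 12 h, adjusted p = 0.122, limma). The mean of the gene's probe sets was called lower at 12 h (-1.42, adjusted p = 0.0387), as was the brighter one with the replicate number as a block (adjusted p = 0.02) and without replicate 1 of 12 h (-2.30, adjusted p = 0.0313); over all settings the adjusted p ran between 0.02 and 0.622. The dimmer probe set, 1421447_at, gave 353 and 291 in normal liver, 67.8 and 82.9 at 4 h, 112.5 and 80.1 at 8 h, 126 and 59.6 at 12 h, 203 and 103 at 36 h, 163.5 and 144 at 48 h and 157 and 87.2 at 72 h. Every array after PHx lies below its normal pair. Its change was -1.52 at 4 h (adjusted p = 0.0228), -1.31 at 8 h (0.0194) and -1.37 at 12 h (0.0135), all called lower, and -0.89, -0.85 and -1.11 at 36, 48 and 72 h (0.14, 0.23 and 0.0926). Neither 4 h array was above its background there, so by this probe set the 4 h level was at least 3.59-fold lower than in normal liver. Replicate 2 of 8 h (80.1, background 92.2) and of 12 h (59.6, background 138) also lay under background. For this probe set replicate 2 was 0.473 to 0.712 times replicate 1 at 8, 12, 36 and 72 h, where replicate 2 has the low 5′/3′ control ratio. It was 0.825 to 1.22 times in normal liver and at 4 and 48 h. The part of that ratio was not tested. By the brighter probe set the 4 h mean was 32.5% of the normal mean, with the higher 4 h array (241) near the lower normal one (257).

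Prox1, a homeodomain co-repressor of bile acid and metabolic genes (probe set 1421336_at), gave 217 and 139.7 in normal liver, 186.5 and 132 at 4 h, 247 and 203 at 8 h, 292 and 244 at 12 h, 352 and 240.1 at 36 h, 276 and 150.0 at 48 h and 303 and 250.3 at 72 h. Both arrays at 12, 36 and 72 h lie above the normal pair, and the normal arrays themselves stand apart at 217 and 139.7. The changes lay between -0.12 and 0.59 and none was called (adjusted p between 0.288 and 0.915, limma).

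The late times were then set against the early ones, which leaves the shared normal arrays out of the difference. Hhex, Foxa2 and Foxa3 were higher at 36, 48 and 72 h than at 4, 8 and 12 h, and Cebpd was lower; 3 of the 8 members were called higher and 1 lower, against 9.87% and 5.92% of probe sets (15.8% together). Cebpd had a median of 209 (154.5 to 576) on the 6 late arrays and 1213 (999 to 1568.5) on the 6 early arrays, without overlap (-2.01, SE 0.15, adjusted p = 4.59e-06, limma). Hhex had a median of 2393 (1796 to 2486) on the late arrays and 919 (549 to 1846) on the early arrays, overlapping in 1 array of each side (1.23, SE 0.14, adjusted p = 8.23e-05). Both differences were called in 26 of 26 settings. Foxa2 had a median of 872 (718 to 1191) on the late arrays and 577 (492 to 855) on the early arrays (0.56, SE 0.14, adjusted p = 0.02; 20 of 26 settings, between 0.0113 and 0.0686). The Foxa2 call was lost without either array of 4 h, without replicate 1 of 8, 36 or 72 h and without replicate 2 of 48 h (adjusted p between 0.0503 and 0.0686). Foxa3 had a median of 1555 (1168.5 to 1692) on the late arrays and 888 (458 to 1673) on the early arrays (0.75, SE 0.19, adjusted p = 0.0212; 21 of 26 settings, between 0.00068 and 0.189). The Foxa3 call was lost without replicate 1 of 4 or 72 h, without replicate 2 of 8 or 48 h (adjusted p between 0.0557 and 0.0615), and without the 4 arrays of low 5′/3′ control ratio (0.52, adjusted p = 0.189). Cebpa had a median of 4871 (3812 to 6296) on the late arrays and 2584 (2218.5 to 7111) on the early arrays; the difference of 0.69 did not pass (adjusted p = 0.0641), and without replicate 2 of 12 h it was 0.97 (adjusted p = 0.00105; between 0.00105 and 0.145 over all settings). Hnf4a, Onecut1 and Prox1 differed by -0.28, 0.11 and 0.21 (adjusted p = 0.196, 0.874 and 0.453).

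**Figure D4:**
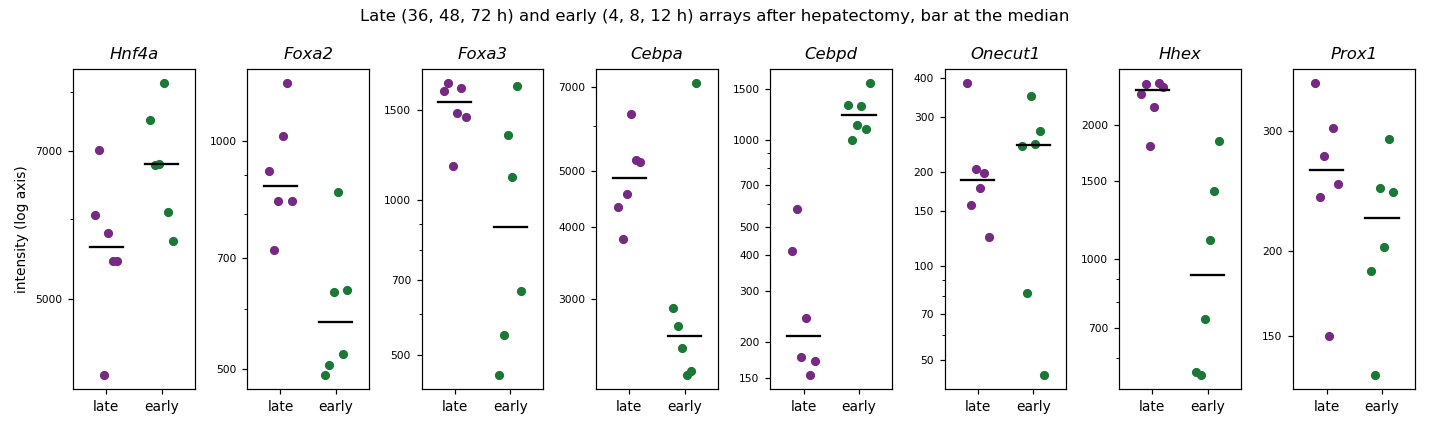
Intensity (vertical log axis, array units) of each of the 8 genes on the 6 late arrays (36, 48 and 72 h after PHx) and the 6 early arrays (4, 8 and 12 h); points are arrays and bars are medians. For Cebpd the late arrays lie at 154.5 to 576, all below the early arrays at 999 to 1568.5.

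Over the 14 arrays Hhex, Foxa2 and Cebpa ran together and Cebpd ran against them. Pearson's r of the log2 values was 0.80 for Foxa2 with Hhex, 0.77 for Cebpa with Hhex and 0.72 for Foxa2 with Cebpa, and -0.81, -0.73 and -0.67 for Cebpd with Foxa2, Hhex and Cebpa. Hnf4a with Cebpd had r = 0.67, and Prox1 with Foxa2 0.02. These are descriptions over 7 groups of 2 arrays that share normalization, so they carry no p. Among 8453 other genes, the 3 most like Hhex were Ptch1 (r = 0.92), the hedgehog receptor, Prkd3 (0.91), a protein kinase, and Gba2 (0.90), a glucosylceramidase. For Foxa2 they were Nr3c1 (0.94), the glucocorticoid receptor, Zkscan3 (0.90) and Hexim1 (0.89), an inhibitor of transcription elongation. For Cebpd they were Mrap (0.97), the melanocortin receptor accessory protein, Slc25a51 (0.97), the mitochondrial NAD carrier, and Adamts1 (0.96), a secreted protease. For Cebpa they were Mid1ip1 (0.88), a regulator of fatty acid synthesis, Nfat5 (0.86) and Tmem131l (0.86). Foxa3 was nearest to Rfxap, Anp32b and Mlec (0.92, 0.92 and 0.91), Hnf4a to Slc15a3, Ppil4 and Ccndbp1 (0.87, 0.83 and 0.83), Onecut1 to Mtx2, Mcat and Rspry1 (0.93, 0.86 and 0.86), and Prox1 to Tmem184c, Kpna3 and Pa2g4 (0.93, 0.86 and 0.85).

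Of 23 other liver transcription factors, 18 were tested. At 4 h 1 was called higher and 2 lower, at 8 h 0 and 3, at 12 h 1 and 5, at 36 and 48 h 0 and 1, and at 72 h 0 and 0. Over all tested probe sets 1.6% were called higher and 0.825% lower at 4 h, 4.86% and 4.72% at 8 h. These shares were 5.97% and 6.21% at 12 h and 2.28% and 1.88% at 36 h. They were 1.63% and 0.685% at 48 h and 1.62% and 0.862% at 72 h. Their median change was -0.74, -0.45 and -0.62 at 4, 8 and 12 h, beside -0.00, 0.09 and 0.12 over all tested probe sets. Cebpb, the acute-phase partner of Cebpd, gave 7642 and 8172 at 4 h, against 2398 and 2609 in normal liver (1.64, SE 0.26, adjusted p = 0.00671, limma). It was called at 12 h too (1.27, adjusted p = 0.00945), not at 8 h (0.79, adjusted p = 0.079), and was lower at the late than at the early times (-1.45, adjusted p = 4.97e-05). A dimmer probe set of Cebpb was called at 4 h (1.71, adjusted p = 0.0432, limma) and late against early (-1.54, adjusted p = 0.000717). At 8 and 12 h that probe set was not called (0.46 and 0.97, adjusted p = 0.491 and 0.128). Klf15, a fasting-response regulator of gluconeogenesis, gave 345 and 239 at 12 h, against 1839 and 2558 in normal liver (-2.69, adjusted p = 0.000111). Nr1i3, the xenobiotic receptor CAR, gave 424 and 399.9 at 8 h, against 1824 and 1423 in normal liver (-1.83, adjusted p = 0.00522). Nfib gave 133 and 190.1 at 12 h, against 791 and 431 in normal liver (-1.57, adjusted p = 0.0117). Foxa1, the third forkhead relative, was picked after its values were seen: it gave 222 and 179 at 4 h, against 583 and 635 in normal liver (-1.37, SE 0.24, adjusted p = 0.0104), and was higher at the late than at the early times (0.48, adjusted p = 0.0313).

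Of 24 HNF4A target genes 23 were tested, and the numbers called higher and lower were 1 and 1 at 4 h, 1 and 4 at 8 h, 1 and 5 at 12 h, 2 and 4 at 36 h, 1 and 2 at 48 h and 1 and 3 at 72 h. Of all probe sets, 1.6% were called higher and 0.825% lower at 4 h, 4.86% and 4.72% at 8 h, and 5.97% and 6.21% at 12 h. At 36, 48 and 72 h the shares were 2.28% and 1.88%, 1.63% and 0.685%, and 1.62% and 0.862%. The targets called higher were Apoa4 at every time and, at 36 h, Apoc2 in addition, named after its values were seen (1.31, adjusted p = 0.00733). Apoa4, a lipid-transport apolipoprotein, gave 23521 and 22494 at 36 h, against 1362 and 1319 in normal liver (4.05, adjusted p = 5.21e-05). Cyp7a1, which catalyses the slowest step from cholesterol to bile acids, gave 221 and 167 at 8 h, against 1104 and 1348 in normal liver (-2.36, adjusted p = 0.00058). Cyp8b1, which makes cholic acid, gave 828 and 799.6 at 36 h, against 4809.7 and 5272 in normal liver (-2.55, adjusted p = 0.000392). G6pc, the last enzyme of gluconeogenesis, is in the HNF4A, C/EBPα and FOXA lists and gave 624 and 1008 at 8 h, against 6735 and 9229 in normal liver (-3.22, adjusted p = 0.00117).

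Among the lists, 8 of the 24 HNF4A targets, 7 of the 14 C/EBPα targets, 9 of the 12 FOXA targets and 5 of the 8 genes listed for HNF6, HHEX or PROX1 are also in another list. Beside the counts below, the shares of all tested probe sets called higher and lower were 1.6% and 0.825% at 4 h. They were 4.86% and 4.72% at 8 h, 5.97% and 6.21% at 12 h and 2.28% and 1.88% at 36 h. At 48 and 72 h they were 1.63% and 0.685%, and 1.62% and 0.862%. Of 14 C/EBPα target genes 10 were tested: 0 were called higher, and 2 were called lower at 8 and at 12 h, 1 at 72 h and 0 at 4, 36 and 48 h. Ugp2, which makes UDP-glucose for glycogen, gave 3308 and 3103 at 12 h, against 6349 and 8932 in normal liver (-1.22, adjusted p = 0.00804, limma). Of 12 FOXA target genes 10 were tested, with 0 called higher at any time, 0 called lower at 4 and 36 h and 1 at 8, 12, 48 and 72 h; Igfbp1, an insulin-responsive growth factor binding protein, gave 1989 and 2237 at 48 h, against 8926 and 8583 in normal liver (-2.02, adjusted p = 0.05 after rounding, under the threshold before it). Of 8 genes listed for HNF6, HHEX or PROX1, 6 were tested, Foxa2 among them, and 2, 1, 3, 1, 0 and 1 were called lower from 4 to 72 h with 0 called higher. Slc10a1, the bile acid uptake carrier, gave 6538 and 5618 at 72 h, against 11831 and 14506 in normal liver (-1.10, adjusted p = 0.0447). Of 18 acute-phase genes with C/EBP sites 17 were tested, and 5, 7, 6, 5, 4 and 4 were called higher from 4 to 72 h, with 2 called lower at 12 h and 0 at the other times. Lcn2, an iron-binding lipocalin, gave 30991 and 26699 at 8 h, against 352 and 257 in normal liver (6.33, adjusted p = 2e-05). Saa1 and Saa2, serum amyloid proteins, changed by 5.09 at 12 h (adjusted p = 4.57e-06) and 5.42 at 8 h (5.84e-06), and Orm2, an acid glycoprotein, by 3.49 at 48 h (0.000144). At 48 and 72 h, when Cebpd was near its normal level, Saa1 was still 4.63 and 3.18 above normal liver on the log2 scale (adjusted p = 4.03e-06 and 8.83e-05).

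**Figure D5:**
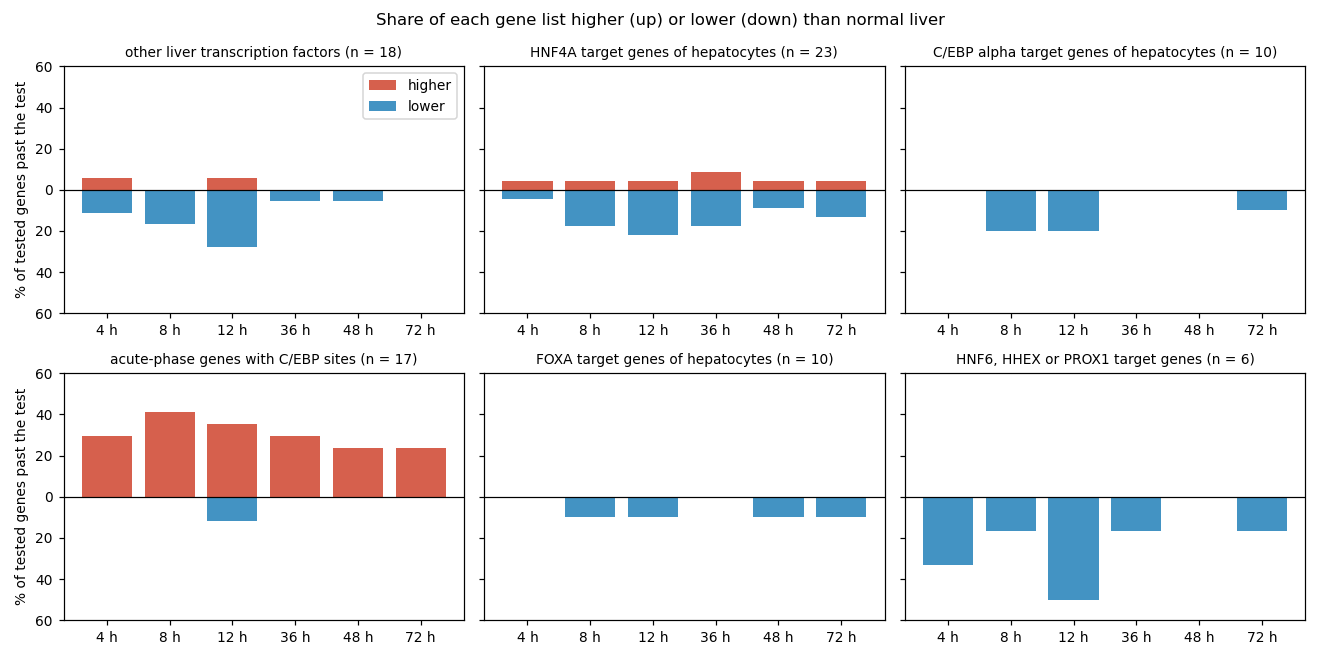
Percentage of the tested genes of each list (vertical axis) called higher (red, upward) or lower (blue, downward) than normal liver by limma, at each time after PHx (horizontal axis); n is the number of genes tested. Acute-phase genes have 4 to 7 called higher at every time, while the other liver transcription factors have 5 called lower at 12 h. Over all tested probe sets 1.6% to 5.97% were called higher at the 6 times, and 6.21% lower at 12 h.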

How the data were processed

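Liver RNA was measured on 14 1-colour arrays, 2 in each of 7 groups taken from the sample labels. The deposited values are intensities on a linear scale, 1 per probe set; which software made them was not given in the sources read. The mean of every array, without the lowest and highest 2% of values, agreed to 500.2 or 500.3, so the deposited arrays were already scaled to each other. Per the series' design text, the authors selected genes differing 2-fold from normal liver with GeneSpring.

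Of 22690 probe sets, 64 controls were left out. Symbols came from the array's annotation. Values became log2(intensity + 56.6), the 25th percentile of all intensities; probe sets with a mean intensity of at least 128.7, the 40th percentile, were tested (13580). One model with 7 groups was fitted with limma 3.58.1 in R 4.3.3, with Benjamini-Hochberg adjustment within each contrast, and was tested on simulated data. Each array's background is what 95% of its 27 bacterial controls stay under (43.6 to 138). The number of arrays limits the precision. A lower bound on a fold uses the array's background where no array of a group is above it.

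The members, gene lists and marker lists were chosen with earlier results of these data known. Text names all 8 members, up to 4 called genes of each list with the largest change at the time of that change, and for each member the 3 most correlated genes. Alternatives covered normalization, pseudocount, filter, the 4 arrays whose pyruvate carboxylase control has a 5′/3′ ratio under 0.2 as a block or left out, array weights, an intensity trend, the replicate number as a block, fits to the compared arrays only, the mean of all probe sets, a 2-fold rule without a test, and each array left out. Replicate numbers were not used for pairing: deviations of same-numbered arrays correlated between -0.19 and 0.53.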

Additional observations from a re-analysis of the deposited data

Results flagged for a closer look

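Of the 8 members, 4 differed between the late arrays (36, 48 and 72 h) and the early arrays (4, 8 and 12 h) by limma's test of that difference itself. Cebpd was lower at the late times by -2.01 on the log2 scale (adjusted p = 4.59e-06). Hhex was higher by 1.23 (8.23e-05), Foxa3 by 0.75 (0.0212) and Foxa2 by 0.56 (0.02). Groups of 2 arrays are too small for a check on single outlying arrays.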

How the results depend on the processing

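Of 1498 recomputed values of single members, 1398 kept their direction and side of the threshold, 49 no longer passed it, 30 newly passed it and 21 changed sign, none of them called before or after. These counts include the 2-fold rule, which has no p: there passing means a change of at least 2-fold. Under that rule a change of sign was counted only for values called in the main fit. With quantile normalization Cebpd and Prox1 at 48 h became -0.20 and -0.056, and Hnf4a at 72 h 0.11. With the mean of all probe sets Hnf4a became 0.32 at 48 h and 0.071 at 72 h, and Cebpd 0.23 at 72 h. Leaving out each array in turn gave -0.36 to 0.12 for Prox1 at 4 h, -1.18 to 0.16 for Onecut1 at 8 h, -0.10 to 0.21 for Hnf4a and -0.52 to 0.74 for Foxa3 at 12 h. At 48 h it gave -0.43 to 0.0345 for Hnf4a, -0.11 to 0.24 for Cebpd and -0.17 to 0.52 for Prox1, at 72 h -0.21 to 0.094 for Hnf4a, and late against early -0.17 to 0.39 for Onecut1. At 36 h the count of called members, 1, became 0 with quantile normalization and without a filter. It also became 0 with the 4 arrays of low 5′/3′ control ratio as a block. The fit to the compared arrays only and the mean of all probe sets gave 0 too. With those 4 arrays left out, which leaves 1 array at 36 h, the Cebpd change there was 0.89, against 1.11 with them. Among all 13580 tested probe sets, 565 were called at 36 h. The number was 589 with quantile normalization, 507 with that block and 152 in the fit to the compared arrays only. Without a filter it was 452 of 22626, and with the mean of all probe sets 494 of 7917 genes. At 12 h the count of 3 became 1 with array weights and in the fit to the compared arrays only. There 584 and 321 of all tested probe sets were called, against 1654. The count of 3 over the 6 times became 5 with 4 times the pseudocount, array weights or an intensity trend. In these settings 2151, 2154 and 2009 of all tested probe sets were called, against 1784. The 2-fold rule without a test gave 5 members for 4 h, 2 for 36 h, 1 for 48 h and 1 for 72 h, 5 over the 6 times and 2 late against early. Its share over all probe sets was not counted. Leaving out an array leaves its group with 1 array, which is assumed to vary like the other groups. Counts of called members from those fits are therefore not given. With the replicate number as a block the counts were 3 members for 4 h and for 8 h, 4 for 12 h (Onecut1 in addition), 1 for 36 h, 0 for both later times, 2 over the 6 times and 4 late against early, all within 1.5 times of the counts without it; the numbers mark no known pairing. With that replicate block, limma called 326, 1381, 1763 and 604 of all tested probe sets at 4, 8, 12 and 36 h. At 48 and 72 h it called 325 and 336, over the 6 times 1785 and late against early 2242. Quantile normalization moved the median change of all probe sets at 48 h to -0.00, against 0.12 with the deposited scaling. The cause of these differences was not tested. Signal near background limits Onecut1.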

Other observations

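Cebpg, a further C/EBP gene chosen after its values were seen, gave different answers by probe set. Its brightest probe set gave 842 and 853 at 36 h, against 809 and 763 in normal liver (0.10, SE 0.22, adjusted p = 0.866, limma). Another gave 487 and 506 at 36 h, against 244 and 237 in normal liver, and was called higher (0.90, SE 0.20, adjusted p = 0.026). That probe set was also higher at the late than at the early times (0.55, SE 0.11, adjusted p = 0.00658), where the brightest one differed by 0.32 (adjusted p = 0.115).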
